A study of Mus musculus with 19 samples.

Results

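The genes described are 48 members of the Wnt signalling pathway in mouse kidney: ligands, receptors, secreted antagonists, the R-spondin module, cytoplasmic components, and TCF/LEF factors with feedback genes. They were chosen by symbol, whatever their change, and by a total of at least 190 reads over 19 libraries. The symbols matched 64 of 55536 genes in the count table, and 16 of these fell under the minimum, among them the antisense RNA Rspo4os, matched by its first letters. RNA sequencing was run on whole kidney in 3 groups. The vehicle group held 7 libraries of UUO kidneys given vehicle, the zalfermin group 8 libraries of UUO kidneys given zalfermin, and the healthy group 4 libraries of kidneys without UUO. UUO is read as obstruction of a single ureter, which leads to kidney fibrosis, and zalfermin is an analogue of the hormone FGF21. The labels carry MASH for all 15 of these diseased libraries, while UUO is named in the design text, and they write the drug as a code that is assumed to mean zalfermin. They call healthy animals untreated, whereas the design has them on vehicle. Neither strain nor age, sex, dose or time after surgery is stated in these sources. Separate animals per library are not stated either, so each p-value reflects the spread among libraries of a group, which may be technical.

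Wnt ligands are secreted proteins that bind Frizzled receptors and the co-receptors Lrp5 and Lrp6. In the canonical branch this spares beta-catenin, the product of Ctnnb1, from a destruction complex built on Axin, Apc and Gsk3b, and beta-catenin then acts with TCF/LEF factors to switch on targets that include the pathway's own inhibitors, such as Axin2 and Nkd1. In the kidney, Wnt9b and Wnt4 act in nephron formation in the embryo and Wnt7b in the collecting duct, and renewed Wnt signalling has been described in injured and fibrotic adult kidney.

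Promoter sequence was compared for the feedback genes Nkd1, Nkd2 and Axin2, which moved together with obstruction, and for the ligand Wnt11, which moved the other way. The windows run from 250 bases before to 50 after the RefSeq start on GRCm38.p6, printed 5′ to 3′ on the gene's strand, with capitals marking the TCF/LEF core letters CTTTGAT or their reverse complement ATCAAAG. They lie at chr8:88527383-88527682 on the plus strand for Nkd1, chr13:73847582-73847881 on the minus strand for Nkd2, chr11:108920099-108920398 on the plus strand for Axin2 and chr7:98834862-98835161 on the plus strand for Wnt11.
Nkd1: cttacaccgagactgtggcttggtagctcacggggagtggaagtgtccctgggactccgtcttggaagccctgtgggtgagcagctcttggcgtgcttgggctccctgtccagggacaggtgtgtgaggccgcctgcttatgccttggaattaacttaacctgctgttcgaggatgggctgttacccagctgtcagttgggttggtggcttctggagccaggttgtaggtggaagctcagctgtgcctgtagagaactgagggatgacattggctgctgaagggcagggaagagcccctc
Nkd2: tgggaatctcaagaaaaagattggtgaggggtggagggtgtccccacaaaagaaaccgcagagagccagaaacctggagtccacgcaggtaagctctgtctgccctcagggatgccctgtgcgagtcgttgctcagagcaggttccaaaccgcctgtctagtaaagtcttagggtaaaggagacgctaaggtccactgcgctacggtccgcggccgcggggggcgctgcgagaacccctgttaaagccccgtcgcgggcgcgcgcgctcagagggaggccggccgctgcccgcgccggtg
Axin2: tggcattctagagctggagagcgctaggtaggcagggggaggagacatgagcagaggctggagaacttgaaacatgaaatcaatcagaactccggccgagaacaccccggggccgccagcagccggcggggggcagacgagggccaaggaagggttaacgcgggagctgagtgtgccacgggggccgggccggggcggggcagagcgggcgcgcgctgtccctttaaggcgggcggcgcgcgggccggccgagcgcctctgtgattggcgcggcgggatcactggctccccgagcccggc
Wnt11: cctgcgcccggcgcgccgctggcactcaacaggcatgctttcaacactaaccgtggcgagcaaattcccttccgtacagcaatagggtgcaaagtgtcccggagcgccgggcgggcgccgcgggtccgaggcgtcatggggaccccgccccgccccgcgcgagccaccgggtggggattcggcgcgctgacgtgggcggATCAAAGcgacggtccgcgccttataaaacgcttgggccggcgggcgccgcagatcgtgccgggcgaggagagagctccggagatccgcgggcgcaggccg

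RefSeq held promoter windows for 30 of the 48 genes, 40 windows in all, and the other Wnt11 window, at a separate start, is not shown and holds 0 matches of CTTTGAT. On either strand, CTTTGAT stood in 2 of the 40 windows, those of Wnt11 and Wnt5b, against 3.73% of all 32851 promoter windows of the same length. The variant CTTTGAA, which differs in its last letter and cannot match at the same place, stood in 0 of the 40 windows and in 5.14% of all. In Wnt11 the letters begin 51 bases before the start. GENCODE begins Nkd1 at chr8:88521354, so the window printed here lies inside the gene, and sequence at that other start was not examined. The Nkd1 window held 6 CpG pairs, against 26 for Nkd2 and 31 for Axin2. The windows of the Wnt pathway genes had a median GC content of 65.8% and a median of 23.5 CpG pairs, against 52.7% and 7 over all windows. The shorter core CTTTG stood in 18 of the 40 windows (45%) and in 53.9% of all windows. The windows of the 3 feedback genes lack CTTTGAT, and 1 of the Wnt11 windows has it, which says nothing of sites elsewhere. Most windows lack these 7 letters, so this difference between the genes cannot be tied to the direction of their change.

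Libraries held 12209122 to 14844103 reads, and 16026 genes had enough reads to be tested. Levels are given as CPM, read counts scaled to a common library size with TMM factors, and adjusted p is from edgeR's quasi-likelihood test with Benjamini-Hochberg adjustment over the 16026 genes. A gene was called at an adjusted p under 0.05. The proximal tubule markers summed to 17401 to 21867 CPM in healthy libraries, as the kidney label implies. In 7 vehicle libraries the same markers summed to 3716 to 6830 CPM, and 8 of 8 fell. The fibroblast markers rose in 12 of 12, from 194 to 317 CPM summed in healthy libraries to 2810 to 5017 in vehicle libraries, and 10 of 10 macrophage markers rose. Of 8 thick limb and distal tubule genes 7 fell, and of 8 urothelial genes 4 rose. Podocyte genes split into 3 higher and 3 lower of 8, and endothelial genes into 4 higher and 2 lower of 8, with 1 lower without healthy replicate 1 or 2 or vehicle replicate 4. Of 5 tested red blood cell genes 4 fell, but 1 without healthy replicate 1 or 4 and 2 without any 1 vehicle replicate other than replicate 6. Vehicle replicate 6 stood apart, with the fewest genes detected, 19788, and 1.10% mitochondrial reads against 3.09 to 4.21% in the other vehicle libraries. In whole tissue, fewer cells of a type and less RNA per cell cannot be told apart.

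The Wnt pathway genes together took 0.158 to 0.201% of the reads in healthy libraries and 0.244 to 0.299% in vehicle libraries. These are shares of raw reads, and the TMM factors ran from 0.751 to 0.843 in healthy and 1.02 to 1.11 in vehicle libraries. Mitochondrial reads took 8.77 to 10.2% in healthy and 1.10 to 4.21% in vehicle libraries. The part of library composition in the higher Wnt share was not tested. Obstruction with vehicle changed 30 of the 48 genes against healthy kidney, 25 of them higher and 5 lower. Over all tested genes 64.8% were called, 36.2% higher and 28.6% lower, so the share of Wnt genes changed was near the background while more of them were higher. Their median log2 fold change was 0.49, against 0.09 over all tested genes. The median of all genes was 0.01 with RLE scaling and 0.14 with upper-quartile scaling. All 48 were tested, but 8 averaged under 10 reads in healthy libraries, so that they met the read minimum through the obstructed groups. By role, the median log2 fold change was 2.19 for TCF/LEF factors and feedback genes, 0.98 for antagonists, 0.81 for ligands, 0.42 for receptors, 0.23 for Porcn and cytoplasmic components and -0.14 for the R-spondin module. The antagonist and ligand medians are the values of single genes, Sfrp5 and Wnt2. Neither was called, and they averaged 4.75 and 5.5 reads in healthy libraries. Of 7 antagonists 2 were called higher and 1 lower. In 20 genes every vehicle library lay above every healthy one, against 24.7% of all tested genes, and in 1, Lgr4, every vehicle library lay below, against 19.5%.

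**Figure D1:**
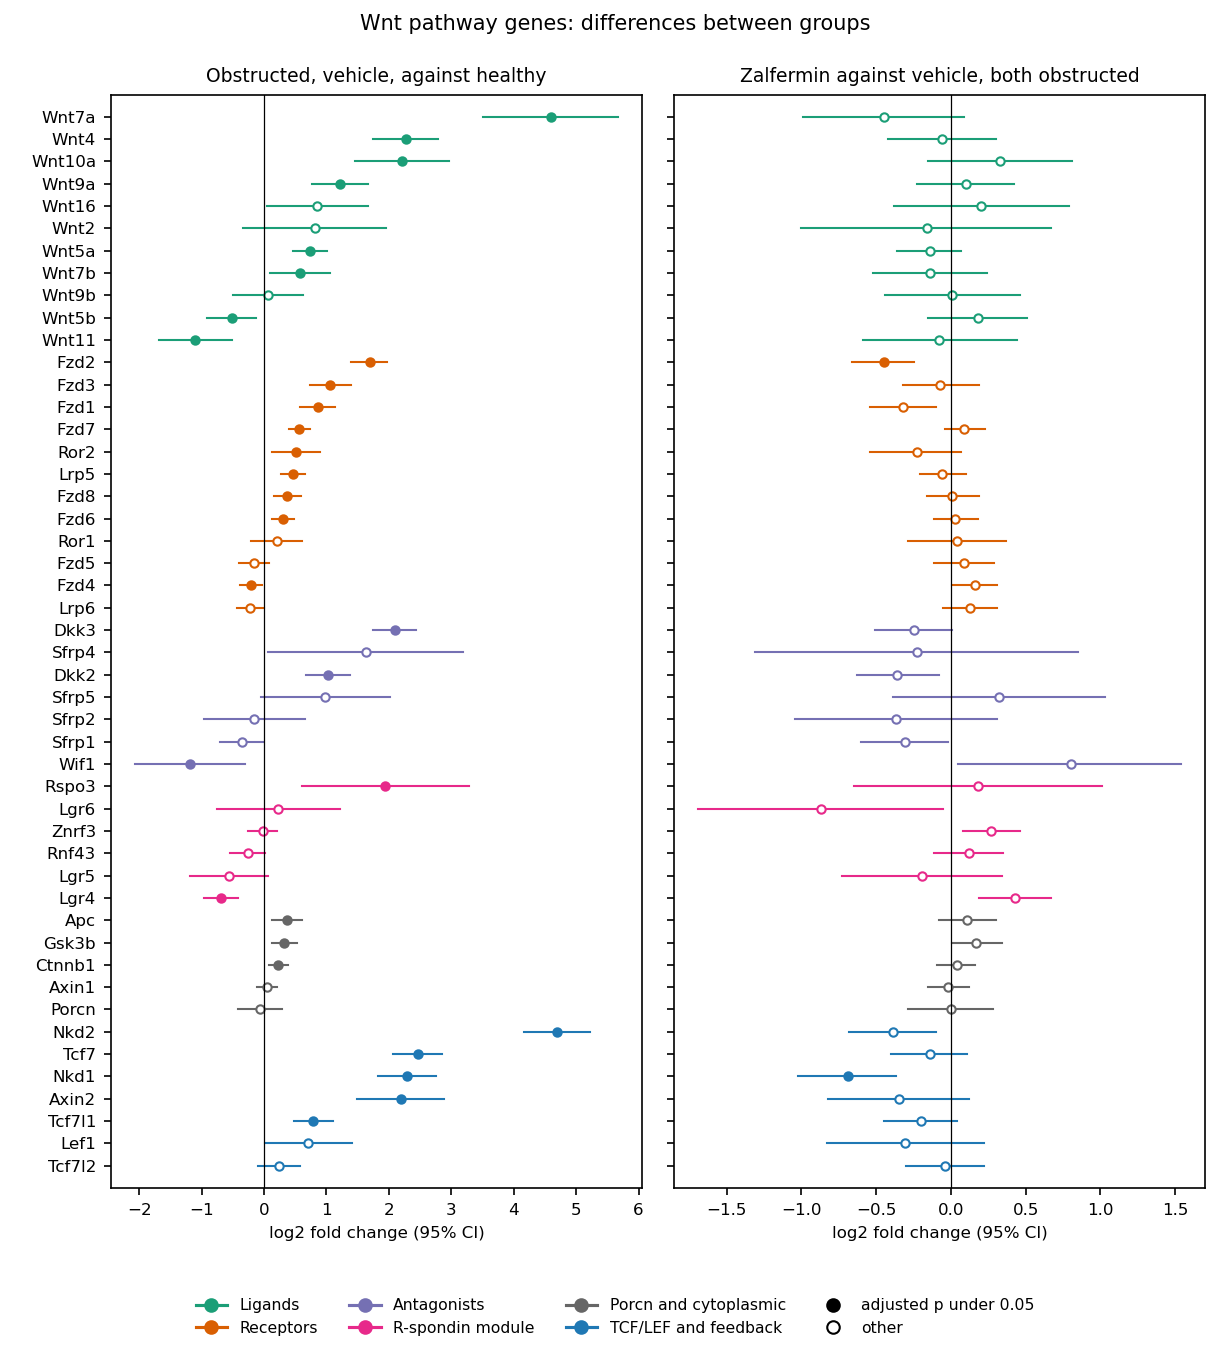
Log2 fold change with its 95% confidence interval for 48 Wnt pathway genes, coloured by role, in obstructed vehicle against healthy kidney (left) and in zalfermin against vehicle (right, on a narrower axis). Filled points passed the adjusted p threshold: 30 genes on the left, led by Nkd2 at 4.69 and Wnt7a at 4.59, and 2 on the right, Nkd1 at -0.69 and Fzd2 at -0.45. Nkd2 and Wnt7a averaged under 10 reads in healthy libraries.

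The largest log2 fold change of the 48 genes was that of a feedback inhibitor, Nkd2. Its product binds Dishevelled and dampens Wnt signalling. Nkd2 stood at 0.674 to 1.18 CPM in healthy libraries and at 16.5, 19.9 and 27.4 CPM (lowest, median and highest) in vehicle libraries. Its log2 fold change was 4.69 ± 0.26 (SE; edgeR adjusted p = 8.69e-13), a 25.8-fold difference. It had 36 reads over the 4 healthy libraries, a mean of 9.0, so it met the read minimum through the obstructed groups. The size of the fold rests on those few reads. The lowest vehicle library lay far above the highest healthy one. Nkd1, its paralog with a similar role, read 7.38, 4.61, 3.03 and 2.94 CPM in the 4 healthy libraries and 17.9, 22.6 and 25.4 CPM across the vehicle libraries. These groups did not overlap either, and the log2 fold change was 2.29 ± 0.22 (edgeR adjusted p = 6.52e-09).

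Axin2, a scaffold of the destruction complex and a widely used readout of beta-catenin activity, read 3.55, 1.24, 0.842 and 0.589 CPM in healthy libraries, and 5.03, 7.84 and 8.40 CPM in vehicle libraries. Healthy replicate 1 was the high one, and it still lay below every vehicle library. The log2 fold change was 2.19 ± 0.34 (edgeR adjusted p = 5.54e-06), and without healthy replicate 1 it was 2.98.

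Of the nuclear factors, Tcf7, which encodes TCF1, rose from 1.35 to 1.77 CPM in healthy libraries to 7.02, 8.35 and 11.3 CPM in vehicle libraries, a log2 fold change of 2.46 ± 0.19 (edgeR adjusted p = 1.85e-10). Tcf7l1, encoding TCF3, known mainly as a repressor, read 5.49 to 11.7 CPM in healthy and 13.8 to 16.96 CPM in vehicle libraries, again without overlap, with a log2 fold change of 0.79 ± 0.15 (edgeR adjusted p = 9.24e-05). For both factors every vehicle library lay above the healthy range. Lef1 and Tcf7l2 did not pass. Lef1 averaged 0.902 ± 0.288 (SD, n = 4) and 1.48 ± 0.67 CPM (n = 7; edgeR adjusted p = 0.0666). It passed without vehicle replicate 2 (0.0398) or 4 (0.0418) and with voom (0.0343), with 0.0343 to 0.223 over 19 alternatives. Tcf7l2 averaged 13.6 ± 1.1 and 16.1 ± 4.0 CPM and was lowest in vehicle replicate 6 at 8.56 CPM. It passed without that library (edgeR adjusted p = 0.0181) and with voom (0.0266).

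Since T lymphocytes also express Tcf7 and Lef1, their markers were set beside them. Of 12 T lymphocyte markers 11 rose, none was at 0 in every library, and their sum went from 8.83 to 11.1 CPM in healthy to 24 to 46.1 CPM in vehicle libraries. The part of these cells in the Tcf7 level was not tested.

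**Figure D2:**
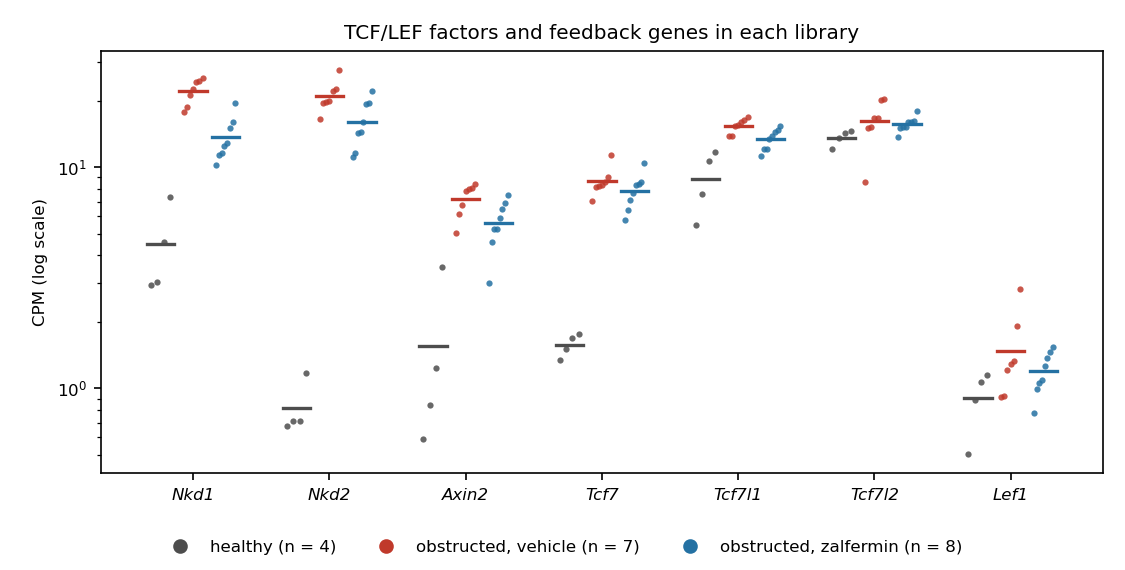
CPM on a log axis for 7 TCF/LEF factors and feedback genes, 1 point per library and a bar at each group's mean. Nkd1, Nkd2, Axin2, Tcf7 and Tcf7l1 lie higher in all 7 vehicle libraries than in the 4 healthy ones, and Nkd1 is lower under zalfermin (13.7 ± 3.1 CPM, SD) than under vehicle (22.1 ± 3.0 CPM).

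Among the ligands 6 of 11 rose and 2 fell. Wnt4, which drives the mesenchyme-to-epithelium step of nephron formation, read 2.86 to 6.39 CPM in healthy libraries and 15.9, 19.1 and 30.5 CPM in vehicle libraries. All 7 vehicle libraries lay above the healthy range, and the log2 fold change was 2.27 ± 0.25 (edgeR adjusted p = 5.72e-08), a 4.82-fold difference. Wnt7a had 7 reads in all 4 healthy libraries, with 0.355 CPM in healthy replicate 1 and 0.0842 to 0.0981 CPM in the others, and 2.48, 4.30 and 5.61 CPM in vehicle libraries. Its log2 fold change of 4.59 ± 0.53 (edgeR adjusted p = 8.49e-08) rests on those few reads and was 5.33 without healthy replicate 1. Wnt10a, a canonical ligand, read 0.421 to 1.596 CPM in healthy and 2.59, 3.57 and 6.82 CPM in vehicle libraries (log2 fold change 2.21 ± 0.36, edgeR adjusted p = 1.34e-05). With 37 reads over the 4 healthy libraries, a mean of 9.25, it too met the read minimum through the obstructed groups.

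Wnt9a and Wnt5a also rose, the latter a ligand best known for signalling without beta-catenin. Wnt5a read 15.6 to 29.4 CPM in healthy and 30.4, 36.2 and 40.7 CPM in vehicle libraries, with a log2 fold change of 0.74 ± 0.13 (edgeR adjusted p = 3.52e-05). Its range began just above the healthy maximum. For Wnt9a the log2 fold change was 1.22 ± 0.22 (edgeR adjusted p = 3.96e-05). Wnt7b, the collecting duct ligand, averaged 17.3 ± 5.2 CPM (SD, n = 4) and 26.0 ± 9.5 CPM (n = 7), and vehicle replicate 6 alone reached 45.1 CPM. The Wnt7b groups overlapped, and its log2 fold change was 0.58 ± 0.23 (edgeR adjusted p = 0.0319). The call was lost without healthy replicate 3 (0.0707) or 4 (0.143), or without vehicle replicate 2 (0.0591) or 6 (0.112). It was also lost with RLE scaling (0.0567), voom (0.0719) or only the 2 groups fitted (0.0591), within a range of 0.0178 to 0.143 over 19 alternatives. Of 8 principal cell markers of the collecting duct 4 fell and 0 rose, with median sums of 834 CPM in healthy and 474 CPM in vehicle libraries.

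Wnt11 and Wnt5b were the ligands that fell. Wnt11, which acts at the tips of the branching ureteric bud, read 3.91, 3.46, 4.30 and 1.57 CPM in healthy libraries and 0.642, 1.57 and 2.34 CPM in vehicle libraries. Healthy replicate 4 lay within the vehicle range and the other healthy libraries above it, and the log2 fold change was -1.10 ± 0.28 (edgeR adjusted p = 0.00171). Wnt5b had a log2 fold change of -0.52 ± 0.19 (edgeR adjusted p = 0.0195), lost without healthy replicate 2 (0.135) or 3 (0.0556). Wnt9b, the inducer of nephron formation, averaged 6.99 ± 3.38 CPM in healthy and 7.36 ± 2.47 CPM in vehicle libraries, and the 95% interval of its log2 difference ran from -0.49 to 0.63. Wnt2 averaged 0.509 ± 0.371 CPM in healthy and 0.882 ± 0.452 CPM in vehicle libraries and was not called with edgeR. With voom it was called higher (adjusted p = 0.00981). Wnt16 averaged 0.758 ± 0.244 and 1.38 ± 0.51 CPM and was not called. It passed as higher without vehicle replicate 1 (edgeR adjusted p = 0.0498) or 4 (0.0335), and with upper-quartile scaling (0.0496).

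Levels can be compared between ligands per length of exon. The 11 ligands summed to 13.9 ± 2.9 CPM per kb (SD) in healthy kidney, 23.7 ± 4.2 with vehicle and 23.0 ± 2.7 with zalfermin. In healthy kidney Wnt7b held 25.1% of this sum, Wnt5b 21.1% and Wnt5a 19.98%, and neighbours in this order overlapped. Wnt4 stood at rank 5 of 11 in healthy kidney with 7.60 ± 1.95% and at rank 2 in vehicle libraries with 21.4 ± 2.4%, beside Wnt7b at 21.8 ± 3.8% and Wnt5a at 20.1 ± 4.1%. Wnt5b went from 21.1 ± 4.9% to 8.48 ± 1.28%. In vehicle libraries the CPM per kb of Wnt7b overlapped that of Wnt4, and Wnt4 that of Wnt5a, while every Wnt5a value lay above every Wnt5b value.

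**Figure D3:**
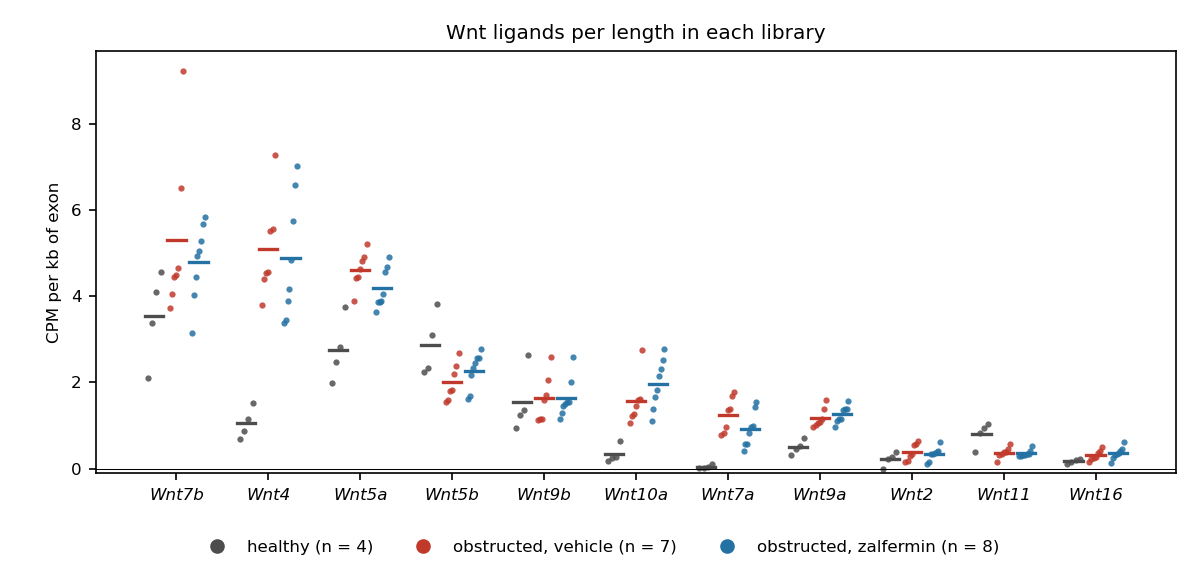
CPM per kb of exon for 11 Wnt ligands, 1 point per library and a bar at each group's mean, ordered by the vehicle mean. Wnt4 went from 1.05 CPM per kb in healthy to 5.09 in vehicle and 4.88 in zalfermin libraries and stood beside Wnt7b and Wnt5a, while Wnt7a and Wnt10a rose from near 0.

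Of the 12 receptors and co-receptors 8 rose and 1 fell. The largest rise was that of Fzd2, a Frizzled receptor for Wnt ligands including Wnt5a, at 5.51, 5.50, 4.63 and 4.61 CPM in healthy libraries and 13.4, 15.8 and 20.8 CPM in vehicle libraries. The healthy libraries lay close together and far below the vehicle range, and the log2 fold change was 1.69 ± 0.14 (edgeR adjusted p = 3.62e-10). Fzd3, known for axon guidance and planar polarity, read 5.47 to 9.60 CPM in healthy and 10.9, 14.4 and 17.4 CPM in vehicle libraries (log2 fold change 1.06 ± 0.16, edgeR adjusted p = 5.49e-06). Fzd1 read 68.0 to 99.96 CPM in healthy and 122.5, 156 and 181 CPM in vehicle libraries (log2 fold change 0.86 ± 0.14, edgeR adjusted p = 7.9e-06). For these 3 receptors the groups did not overlap.

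Smaller rises were those of Fzd7, Ror2, Lrp5, Fzd8 and Fzd6, with log2 fold changes of 0.56, 0.51, 0.46, 0.37 and 0.30. Ror2, a receptor for Wnt5a, lost its call without healthy replicate 1 (edgeR adjusted p = 0.0663), healthy replicate 4 (0.0892) or vehicle replicate 6 (0.0577). It was also lost with voom (0.0659). Fzd4, the most abundant Frizzled of healthy kidney and one used by endothelium, read 174 to 193 CPM in healthy and 134.5, 166 and 181 CPM in vehicle libraries. Its call as lower (log2 fold change -0.21 ± 0.09, edgeR adjusted p = 0.0420) was weak, since it was lost without any 1 of healthy replicates 1, 3 and 4 or vehicle replicates 2, 3 and 7 (adjusted p 0.0516 to 0.0934). The call was also lost with upper-quartile scaling (0.0946), with no filter (0.127) and with only the 2 groups fitted (0.0985). Lrp6, Ror1 and Fzd5 did not pass. The co-receptor Lrp6 averaged 233 ± 27 and 200 ± 28 CPM (edgeR adjusted p = 0.0699). It was called lower without healthy replicate 2 (0.0345) or vehicle replicates 4 (0.0398), 5 (0.0340) or 6 (0.0337). RLE scaling (0.0156) and DESeq2 (0.0102) also called it lower, with 0.0102 to 0.226 over 19 alternatives. Ror1 averaged 16.3 ± 3.1 and 18.8 ± 5.5 CPM (edgeR adjusted p = 0.379) and passed as higher with voom (adjusted p = 0.00383).

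Per length, Fzd4 was the highest receptor in healthy kidney with 28.9 ± 1.8% of the summed receptor level, and Fzd1 followed with 20.3 ± 2.1%. In vehicle libraries the order was turned, with Fzd1 at 29.9 ± 2.5% and Fzd4 at 20.4 ± 1.6%. The CPM per kb of the 2 receptors did not overlap in either group. Under zalfermin Fzd1 held 24.7 ± 2.8% and Fzd4 23.5 ± 1.4%, with overlapping ranges of CPM per kb.

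Among the secreted antagonists, 2 of the Dickkopf genes rose. Dkk3, a divergent family member whose effect on Wnt signalling depends on context, read 22.4, 16.5, 15.9 and 13.6 CPM in healthy libraries and 52.6, 67.4 and 100.4 CPM in vehicle libraries. The log2 fold change was 2.09 ± 0.17 (edgeR adjusted p = 4.26e-10), with no overlap between groups. Dkk2, a ligand of Lrp5 and Lrp6, read 29.6 to 37.3 CPM in healthy and 40.5, 63.9 and 85.2 CPM in vehicle libraries, also without overlap (log2 fold change 1.02 ± 0.17, edgeR adjusted p = 1.6e-05).

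Of the 5 Wnt-binding antagonists, Wif1 was called lower and the Sfrp genes were not called. Sfrp1 averaged 170 ± 16 CPM in healthy and 133 ± 29 CPM in vehicle libraries, a log2 difference of -0.36 ± 0.17 (edgeR adjusted p = 0.0639). It passed without vehicle replicate 1 (0.0358), 5 (0.0428) or 7 (0.0390), with RLE scaling (0.0318) and with DESeq2 (0.0267). The adjusted p ran from 0.0267 to 0.174 over 19 alternatives. Wif1, another Wnt-binding inhibitor, averaged 1.23 ± 0.40 and 0.537 ± 0.264 CPM and fell (log2 fold change -1.19 ± 0.42, edgeR adjusted p = 0.0174), but not without healthy replicate 3 (0.0884; 0.00307 to 0.0884 over 18 alternatives). Sfrp2 averaged 3.82 ± 1.03 and 3.43 ± 2.64 CPM, and was not called. Sfrp4 averaged 0.687 ± 0.357 CPM in healthy and 2.17 ± 1.55 CPM in vehicle libraries, a log2 difference of 1.63 ± 0.75 (edgeR adjusted p = 0.0616) that passed as higher without vehicle replicate 3 (0.0457) or 6 (0.0181). Sfrp5 read 0.355 to 0.491 CPM in healthy and 0.530 to 1.35 CPM in vehicle libraries, without overlap, and its log2 difference of 0.98 ± 0.50 did not pass (edgeR adjusted p = 0.0873). Per length, Sfrp1 made up 70.2 ± 4.0% of the summed antagonist level in healthy and 41.8 ± 3.3% in vehicle libraries, while Dkk3 went from 9.21 ± 1.99% to 30.1 ± 3.5%.

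The R-spondin module sets how many Frizzled receptors stay on the cell surface: R-spondins bind Lgr receptors and withdraw the E3 ligases Znrf3 and Rnf43, which otherwise remove Frizzled. Lgr4, its most abundant gene in kidney, read 314, 218, 307 and 206 CPM in the 4 healthy libraries and 103, 165 and 194.5 CPM across the vehicle libraries. Every vehicle library lay below every healthy one, the lowest being vehicle replicate 6, and the log2 fold change was -0.69 ± 0.14 (edgeR adjusted p = 0.000113), a 1.62-fold lower level. Rspo3, a secreted R-spondin, read 0.0981 to 0.355 CPM in healthy and 0, 0.840 and 2.06 CPM in vehicle libraries and was called higher (log2 fold change 1.94 ± 0.65, edgeR adjusted p = 0.0116), with 11 reads in the healthy group and 0 in vehicle replicate 6. Lgr5, a stem cell marker in other tissues, averaged 1.47 ± 0.48 and 0.997 ± 0.315 CPM (edgeR adjusted p = 0.111).

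The ligases themselves were not called. Znrf3 averaged 19.2 ± 3.6 and 18.9 ± 1.9 CPM, with a 95% interval of the log2 difference from -0.26 to 0.21. Rnf43 averaged 10.6 ± 2.1 and 8.88 ± 1.44 CPM (edgeR adjusted p = 0.101), and passed as lower without healthy replicate 4 (0.0209) or vehicle replicate 6 (0.0133). It also passed as lower with RLE scaling (0.0332), DESeq2 (0.0269) and voom (0.0264). Per length, Lgr4 held 90.8 ± 0.7% of the module's sum in healthy and 85.9 ± 3.3% in vehicle libraries.

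Cytoplasmic components moved little. Ctnnb1, encoding beta-catenin, averaged 684 ± 16 CPM in healthy and 804 ± 33 CPM in vehicle libraries without overlap, a log2 fold change of 0.23 ± 0.07 (edgeR adjusted p = 0.00713), and its call was lost with RLE scaling (0.0632; 0.00025 to 0.0632 over 19 alternatives). Its exons share 759 bases with Ulk4 on the opposite strand, and those of Wnt7b, Fzd6, Wnt5a, Tcf7l1, Sfrp2, Lef1, Fzd5, Axin2, Wnt11 and Rspo3 also overlap other genes, so with no strand setting known these levels may hold reads of both. Over all libraries Ulk4 had 1824 reads beside 209575 of Ctnnb1, and the gene overlapping Wnt7b 274 beside 6204. The gene overlapping Fzd5 had 4 reads, and those overlapping Axin2, Wnt11 and Rspo3 had 0. Apc went from a median of 75.4 to one of 100.6 CPM with overlapping ranges, and Gsk3b from a mean of 76.6 ± 5.7 to 95.6 ± 11.4 CPM, both called higher (log2 fold changes 0.37 ± 0.11 and 0.32 ± 0.10, edgeR adjusted p = 0.00664 and 0.00584). Axin1 averaged 58.9 ± 2.8 and 61.0 ± 6.6 CPM, where its paralog Axin2 rose. Porcn, the enzyme that attaches the lipid Wnt proteins need for secretion, averaged 7.18 ± 1.90 and 6.87 ± 1.15 CPM (edgeR adjusted p = 0.737).

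In a list of 46 further pathway genes, 43 were tested, of which 23 rose and 9 fell with obstruction. Over all tested genes 36.2% were called higher and 28.6% lower. Those with the smallest p were Ptk7 and Vangl2 of the planar polarity branch, the kinase gene Csnk1e and the antagonist Sostdc1. Ptk7 went from 13.5 ± 2.1 to 57.5 ± 7.3 CPM (edgeR adjusted p = 2.78e-12), Csnk1e from 16.7 ± 3.0 to 48.4 ± 6.9 CPM (2.34e-10) and Vangl2 from 3.12 ± 0.82 to 10.5 ± 0.8 CPM (1.12e-09). Sostdc1, made in the distal nephron, fell from 152 ± 24 to 60.2 ± 8.5 CPM (edgeR adjusted p = 2.48e-08). Wls, which carries Wnt proteins to the cell surface, averaged 314 ± 33 and 260 ± 57 CPM and was not called (edgeR adjusted p = 0.0964). It passed as lower without vehicle replicate 6 (0.0116), its lowest library at 135 CPM, with RLE scaling (0.0397) and with DESeq2 (0.0341). Over 19 alternatives its adjusted p ran from 0.0116 to 0.285.

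A list of 25 genes reported as Wnt targets in other settings was then set beside the feedback genes. Of these, 23 were tested, 18 rose and 3 fell, against 36.2% higher and 28.6% lower over all tested genes. The list was chosen with earlier results of these data known, so its count is not independent support. Many of these genes also answer other signals. Cd44, a cell adhesion receptor, went from 1.90 ± 0.93 to 135 ± 27 CPM (edgeR adjusted p = 2.94e-14), Sox9, a factor of regenerating tubules, from 0.574 ± 0.415 to 36.8 ± 7.5 CPM (4.14e-13) and Fn1, encoding fibronectin, from 27.1 ± 2.6 to 562 ± 69 CPM (5.21e-15). Myc rose from 11.3 ± 4.5 to 51.9 ± 9.8 CPM (edgeR adjusted p = 1.59e-09). Mmp7, a secreted protease, read 0 to 0.981 CPM in healthy and 24.1 to 36.5 CPM in vehicle libraries, and Fosl1, an AP-1 subunit, read 0 to 0.0981 and 4.37 to 8.01 CPM.

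The 3 that fell were Notum, Sp5 and Ccnd1. Notum encodes an enzyme that strips the lipid from Wnt proteins, and it went from 24.9 ± 4.2 to 7.33 ± 2.79 CPM (log2 fold change -1.76 ± 0.21, edgeR adjusted p = 1.72e-07). Sp5 encodes a transcription factor induced by beta-catenin in embryos, and it went from 21.5 ± 3.5 to 6.34 ± 1.75 CPM (log2 fold change -1.76 ± 0.17, edgeR adjusted p = 6.52e-09). For neither gene did the groups overlap. The feedback genes Axin2, Nkd1 and Nkd2 rose. Of the reported targets named here, Cd44, Sox9, Fn1, Myc, Mmp7 and Fosl1 rose, while Notum, Sp5 and Ccnd1 fell. The ligases Znrf3 and Rnf43 were not called (log2 differences -0.02 and -0.26, edgeR adjusted p = 0.868 and 0.101). Ccnd1, encoding cyclin D1, averaged 216 ± 30 and 167 ± 20 CPM (edgeR adjusted p = 0.0177), a call lost without healthy replicate 2 (0.0622) or 3 (0.0588). Tubule markers fell and fibroblast and macrophage markers rose in the same comparison, and their part in these levels was not tested.

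Zalfermin was then compared with vehicle among obstructed kidneys. It changed 2 of the 48 Wnt pathway genes, both lower: the receptor gene Fzd2 and the feedback gene Nkd1. Over all tested genes 1.81% were called, 0.867% higher and 0.942% lower, beside 4.17% of the Wnt genes. Of the 48, 12 had an unadjusted p under 0.05, against 15.5% of all tested genes, and the median log2 difference was -0.05, against 0.01 over all. With edgeR, 0 were called higher, against 1 with DESeq2 and 2 with voom. Leaving out vehicle replicate 6 gave 4 called genes, and leaving out vehicle replicate 2 or 7 or zalfermin replicate 2 or 5 gave 1.

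Fzd2 (chr11:102604396-102608058, GRCm38) read 13.4, 15.8 and 20.8 CPM in vehicle libraries and 9.42, 12.1 and 13.4 CPM in zalfermin libraries. The highest zalfermin library lay just under the lowest vehicle one, so the groups did not overlap, as was so in this direction for 0.256% of all tested genes. The log2 fold change was -0.45 ± 0.10 (edgeR adjusted p = 0.0207), 1.37-fold lower, and all 8 zalfermin libraries lay below the vehicle median. Without vehicle replicate 7 the adjusted p was 0.0505, and over 23 alternatives it ran from 0.00189 to 0.0505. The healthy libraries, at 4.61 to 5.51 CPM, lay below both groups.

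Nkd1 (chr8:88521354-88594884) read 25.4, 24.4, 17.9, 18.7, 21.2, 24.5 and 22.6 CPM in vehicle replicates 1 to 7. In zalfermin replicates 1 to 8 it read 12.45, 10.3, 12.8, 16.03, 11.3, 15.1, 11.6 and 19.6 CPM. Zalfermin replicate 8 alone reached into the vehicle range. The log2 fold change was -0.69 ± 0.16 (edgeR adjusted p = 0.0231), 1.62-fold lower, and the call was lost without vehicle replicate 2 (0.0521), zalfermin replicate 2 (0.0557) or zalfermin replicate 5 (0.0550). Over 23 alternatives it ran from 0.00119 to 0.0557. Its paralog Nkd2 averaged 21.1 ± 3.4 and 16.1 ± 4.0 CPM (log2 difference -0.39 ± 0.14, edgeR adjusted p = 0.164), and Axin2 7.16 ± 1.24 and 5.61 ± 1.43 CPM (-0.35 ± 0.23, adjusted p = 0.482). Neither passed with edgeR, and Nkd2 passed with voom (adjusted p = 0.0323). The intervals of Nkd2 and Axin2 ran from -0.68 to -0.10 and from -0.82 to 0.12.

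Lgr4 (chr2:109917647-110014257) was the next gene by p. It read 165, 147, 194.5, 170.5, 189, 103 and 160.5 CPM in vehicle replicates 1 to 7 and 204, 251, 214, 201, 223, 220.2, 202 and 223 CPM in zalfermin replicates 1 to 8. Every zalfermin library lay above every vehicle one, as for 0.349% of all tested genes in this direction. Its log2 difference of 0.43 ± 0.11 did not pass (edgeR adjusted p = 0.0547). It passed without vehicle replicate 3 (0.0443) or 6 (0.0432), with DESeq2 (0.0216), with voom (0.0302) and with only these 2 groups fitted (0.0490). Over 23 alternatives the adjusted p ran from 0.0216 to 0.121. The healthy libraries, at 206 to 314 CPM, overlapped the zalfermin libraries and not the vehicle ones.

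The next in order, Fzd1, averaged 150.4 ± 20.4 CPM under vehicle and 121 ± 20 CPM under zalfermin (log2 difference -0.32 ± 0.11, edgeR adjusted p = 0.140). Znrf3 averaged 18.9 ± 1.9 and 22.8 ± 2.1 CPM (log2 difference 0.27 ± 0.09, edgeR adjusted p = 0.146), and neither gene passed with edgeR. Both passed with voom (adjusted p = 0.0083 for Fzd1 and 0.0444 for Znrf3). Dkk2 averaged 65.5 ± 14.6 and 51.1 ± 9.8 CPM (edgeR adjusted p = 0.188). It passed without vehicle replicate 6 (0.0275) and with voom (0.00687), with 0.00687 to 0.329 over 23 alternatives. For the ligands most raised by obstruction, the 95% intervals of the log2 difference were -0.42 to 0.30 for Wnt4, -0.99 to 0.09 for Wnt7a and -0.15 to 0.81 for Wnt10a. Ctnnb1 differed by 0.04, with an interval from -0.09 to 0.16.

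**Figure D4:**
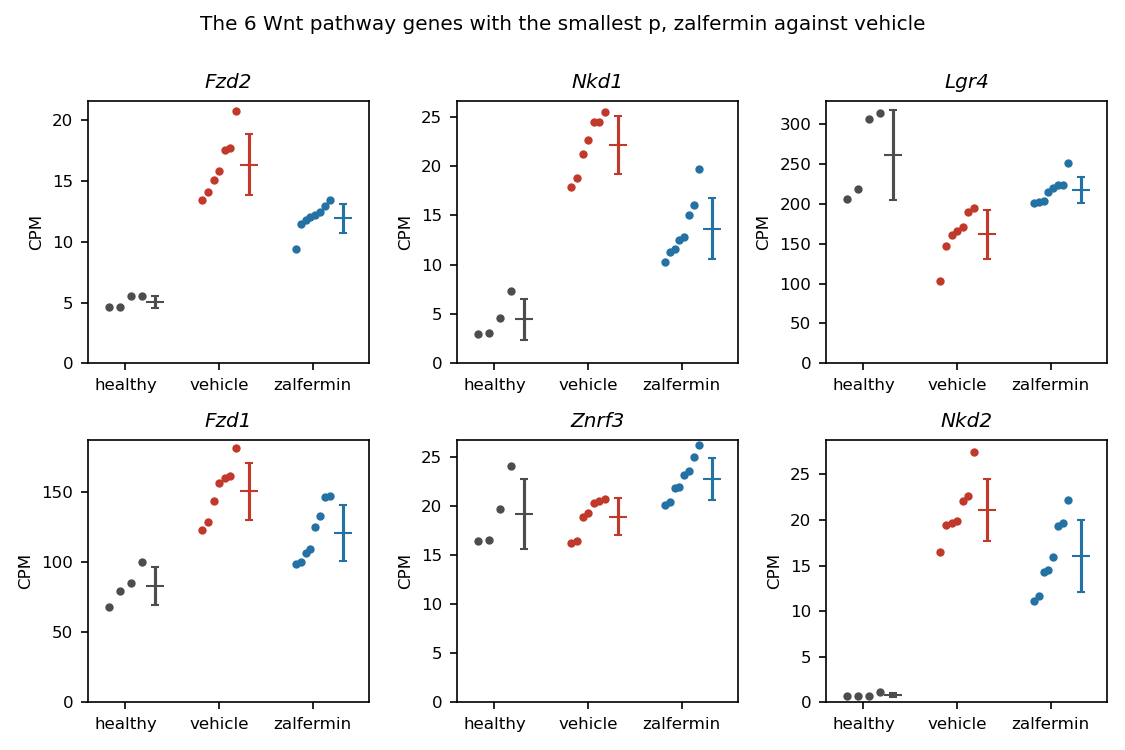
CPM from 0 in each library, with mean and SD beside the points, for the 6 Wnt pathway genes with the smallest p in zalfermin against vehicle. Fzd2 shows 2 separate ranges (13.4 to 20.8 CPM under vehicle, 9.42 to 13.4 CPM under zalfermin), Nkd1 overlaps in 1 zalfermin library, and Lgr4 lies higher in all 8 zalfermin libraries.

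Fibroblast markers were lower under zalfermin, as Fzd2 and Nkd1 were. Their sum was 2810 to 5017 CPM under vehicle and 1655 to 2636 CPM under zalfermin, without overlap, and 3 of 12 were called lower, Col1a1, Col1a2 and Col3a1. Without vehicle replicate 6, 7 were called lower, and without zalfermin replicate 3, 5 were. DESeq2 called 7 lower and voom 8. With edgeR their median log2 difference was -0.59, and 9 of 12 had an unadjusted p under 0.05. The part of fibroblast number in the Fzd2 and Nkd1 levels was not tested. Principal cell markers of the collecting duct summed to medians of 474 and 564 CPM under vehicle and zalfermin, and 0 of 8 were called (edgeR; 3 at an unadjusted p under 0.05, and 2 called with voom). Podocyte genes had 1 called higher, Wt1, from 12.2 ± 1.5 to 16.4 ± 2.3 CPM (edgeR adjusted p = 0.0269), with 0 called without vehicle replicate 2 or 7 or zalfermin replicate 4, 5 or 7, and 2 without vehicle replicate 6. Of the thick limb and distal tubule genes edgeR called 0 of 8, with 4 at an unadjusted p under 0.05, 2 called higher with DESeq2, 2 with voom and a median log2 difference of 0.34. Of the proximal tubule genes edgeR called 0 of 8, with 3 at an unadjusted p under 0.05, 2 called higher with DESeq2, 2 with voom and a median of 0.17. Leaving out 1 library gave up to 2 called higher in both tubule lists, among them without zalfermin replicate 6. The part of these cells in the Lgr4 level was not tested. The T lymphocyte sum, 17.5 to 48.4 CPM under zalfermin, overlapped that under vehicle.

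Of the 43 further pathway genes tested, edgeR called 0 under zalfermin, with 7 at an unadjusted p under 0.05 and 1 called by voom. Over all tested genes edgeR called 1.81%, and 15.5% had an unadjusted p under 0.05. Of the 23 reported targets 1 fell, Fn1, from 562 ± 69 to 377 ± 70 CPM (log2 fold change -0.58 ± 0.11, edgeR adjusted p = 0.00689). Without vehicle replicate 6, 3 of the targets were called lower, and without zalfermin replicate 8, 2 were. Notum and Sp5, low in vehicle libraries, averaged 6.05 ± 1.38 and 5.999 ± 1.066 CPM under zalfermin and did not pass (edgeR adjusted p = 0.503 and 0.844).

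Kidneys given zalfermin were also compared with healthy kidney. Here 28 of the 48 genes were called, 25 higher and 3 lower, against 64.3% of all tested genes, 37.3% higher and 27.0% lower. The lower ones were Sfrp1, Wnt11 and Lgr5. In 18 genes every zalfermin library lay above every healthy one, against 29.4% of all genes, and in 1, Sfrp1, every one lay below, against 21.7%. This comparison shares its healthy libraries with the first and its zalfermin libraries with the second, so each gene's values are given side by side and not as independent support.

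Sfrp1 read 157 to 192 CPM in healthy and 85.3, 98.3 and 155 CPM in zalfermin libraries (log2 fold change -0.67 ± 0.16, edgeR adjusted p = 0.00105). Lgr5 fell from 1.47 ± 0.48 to 0.869 ± 0.251 CPM (edgeR adjusted p = 0.0322). This call was lost without healthy replicate 1 (0.178) or 3 (0.0567) or zalfermin replicate 1 (0.0513), 4 (0.0576) or 7 (0.0522). It was also lost with no filter (0.0976), with 0.0178 to 0.178 over 19 alternatives. Lgr4 was not called here (log2 difference -0.26 ± 0.13, edgeR adjusted p = 0.0875), where it was called lower under vehicle. It passed as lower without healthy replicate 2 (0.0481) or 4 (0.0312) and with RLE scaling (0.0241). DESeq2 (0.0197), voom (0.00715) and a fit of only the 2 groups (0.0098) also called it lower. The range was 0.00715 to 0.332 over 20 alternatives, and all 8 zalfermin libraries lay below the healthy median. Nkd1 was 3.03-fold higher than healthy under zalfermin (edgeR adjusted p = 1.1e-06) and 4.90-fold higher under vehicle, and Fzd2 2.36-fold (3.72e-08) and 3.22-fold higher. Wnt4 stood 2.21 ± 0.25 above healthy on the log2 scale (edgeR adjusted p = 7.45e-08), and Nkd2 4.30 ± 0.26 above (3.81e-12).

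Of the 16 genes under the read minimum 8 were ligands. Wnt1 and the antagonist gene Dkk4 had 0 reads in all 19 libraries, and Wnt3, Wnt3a and Rspo2 had 1 read each. Just under the minimum were Wnt6 with 154 reads, Wnt2b with 135 and Rspo1 with 106, and just over it Wnt2 with 205, Wif1 with 218, Sfrp5 with 229 and Rspo3 with 240. Wnt6, a ligand that induces kidney tubules in explants, had 6 reads in the healthy, 109 in the vehicle and 39 in the zalfermin group, at 0.273 to 2.68 CPM in vehicle and 0.0639 to 0.617 CPM in zalfermin libraries. Wnt6, Wnt2b and Rspo1 were tested and called higher with obstruction (edgeR adjusted p = 0.004, 0.0208 and 0.0411), on 6, 3 and 6 healthy reads. Under zalfermin Wnt6 differed from vehicle by -1.56 ± 0.52 on the log2 scale and was not called (edgeR adjusted p = 0.132).

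Spread between libraries of a group differed widely among the genes. Ctnnb1 varied least in healthy and vehicle libraries, with coefficients of variation of 2.28 and 4.08%, and Axin1 least under zalfermin at 4.20%. The most variable were Lgr6 in healthy libraries (98.7%), Sfrp2 under vehicle (76.9%) and Sfrp4 under zalfermin (77.1%), all at low levels. Healthy libraries had a median of 24.4%, vehicle 18.9% and zalfermin 16.7%, against 14.5, 18.8 and 12.2% over all tested genes.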

How the data were processed

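Whole kidney RNA was measured in 19 libraries. Per the labels' protocols, RNA was extracted with a NucleoSpin kit and libraries were made with a directional NEBNext kit. Reads were aligned with STAR 2.7.0f to GRCm38, per the submitters' processing notes. The deposited values are raw read counts per gene from the authors, whole numbers without normalization. The sources used here do not give the counting program or its strand setting, so genes that overlap on opposite strands cannot be told apart. All further steps were done here. Gene positions and exon lengths came from GENCODE M21 (GRCm38), and promoters from RefSeq (GRCm38.p6).

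Genes were kept with filterByExpr (minimum count 10, minimum total 15), and libraries were scaled with TMM. A single edgeR 4.0.16 quasi-likelihood model (R 4.3.3) was fitted to all 19 libraries with group as its term, tested two-sided and checked on simulated data. Of simulated 1.5-fold changes it recovered 41.8% for vehicle against healthy, 64.2% for zalfermin against vehicle and 46.3% for zalfermin against healthy. False calls made up 6.94, 5.62 and 1.45% of the calls in these comparisons. Small changes can thus be missed. Far fewer genes were changed in the simulation than were called against healthy kidney, so its rates need not hold for those comparisons. Alternatives were scaling by RLE or by upper quartile, voom with quality weights (limma 3.58.1), DESeq2 1.42.0, no filter, 1 CPM in 10 libraries, a robust fit, only the 2 groups compared, and each library left out in turn. The genes, lists and tests were chosen with earlier results of these data known. Full values were given for the 3 most changed called genes of each role, for those called under zalfermin or with the 4 smallest p there, and for a fixed set including Ctnnb1, Axin2 and Wnt4. Values of other genes, such as Znrf3, Tcf7l1, Wnt11 and Sp5, were added after they were seen. Depth was 12209122 to 14844103 reads.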

Additional observations from a re-analysis of the deposited data

Results flagged for a closer look

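A library was singled out where its gap to the nearest other library of its group was large against the range of the group (Dixon's 95% criterion). This happened in 11 of 144 groups, and chance flags about 1 in 20 groups. In vehicle replicate 6, the library that stands apart in genes detected, 3 genes were singled out: Gsk3b was lowest there at 72.0 CPM, Wnt10a was highest at 6.82 CPM and Lrp5 was highest at 102.5 CPM. Other vehicle libraries gave Sfrp2 at 9.19 CPM in replicate 7, the highest, and Fzd7 at 37.8 CPM in replicate 2, the lowest. In healthy libraries, replicate 2 was lowest for Gsk3b (68.1 CPM) and Fzd4 (174 CPM), replicate 1 was highest for Wnt7a (0.355 CPM) and replicate 4 was highest for Nkd2 (1.18 CPM). Under zalfermin, Lgr4 was highest in replicate 2 (251 CPM) and Lgr6 in replicate 6 (1.51 CPM).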

How the results depend on the processing

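No paired analysis was possible because the labels give no replicate numbers, so none can match libraries across groups. No direction of a called gene reversed. With obstruction, 24 of 30 called Wnt genes were called in every alternative, and the 5 lower became 8 with RLE scaling and 8 with DESeq2. Under zalfermin the 2 called became 9 with voom, of which 7 were lower, while the 0 higher became 1 with DESeq2, 2 with voom and 1 with only the 2 groups fitted. Over all genes the 290 called became 602 with DESeq2 and 1148 with voom, and the split of 139 higher to 151 lower became 105 to 191 with upper-quartile scaling. Against healthy kidney the 3 lower under zalfermin became 5 with RLE scaling, 5 with DESeq2 and 5 with voom. Leaving out 1 library gave 26 to 33 Wnt genes called with obstruction (23 to 27 higher, 2 to 7 lower, the 2 without healthy replicate 3), with 9789 to 11199 genes in all. It gave 1 to 4 under zalfermin (0 to 1 higher, 1 to 3 lower; 153 to 517 genes: 517 without vehicle replicate 6, and 179, 157, 153, 162 and 155 without vehicle replicate 2 or 7 or zalfermin replicate 2, 4 or 5), and 27 to 29 for zalfermin against healthy (24 to 26 higher, 2 to 4 lower; 9573 to 10165 genes). The cause was not tested. Depth limits Wnt7a, Rspo3, Lgr5, Lgr6 and Wif1, which rest on few reads per library. Nkd2, Wnt10a, Wnt2, Wnt16, Sfrp4 and Sfrp5, like Wnt7a and Rspo3, averaged under 10 reads in healthy libraries.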
